A study of Mus musculus with 10 samples.

Results

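The 8 genes described here belong to the hormone-sensing program and were followed through sorted mammary epithelial cells of the mouse: the receptors Esr1, Pgr and Prlr, the transcriptional regulators Foxa1, Cited1 and Tbx3, the paracrine ligand Tnfsf11 (Rankl) and the surface antigen Ly6a (Sca-1). They were chosen by name, as 8 of the 24000 gene symbols in the deposited tables, and Esr1 was on the list partly because its difference between the basal columns was already known. In the luminal columns 7 of them were read. Ly6a is on the list as an antigen used to sort hormone-sensing luminal cells and not as a regulator, and Tnfsf11 as a target of progesterone.

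The cells came from the mammary glands of female mice labelled wild type or knockout for Bptf, a subunit of the chromatin remodeller NURF. Tamoxifen (15 mg per kg) had been given to all mice, wild type included, before sorting. Tamoxifen is itself a ligand of the oestrogen receptor, and no group without it was part of the comparison. The 5 groups of 2 libraries were WT luminal, KO luminal, WT myoepithelial (basal), KO myoepithelial, and a knockout population named Bsecs, a term that the labels do not spell out. What drove the deletion, the age and strain of the mice and any pooling of animals were not stated in the labels. For each group the tables gave a single mean column, and whether it pools both libraries or holds 1 of them is not settled. The normalisation steps of the 2 columns in each table multiply to 1, as DESeq factors of exactly 2 columns do. No SD over libraries can be given and no difference below was checked by replicates. Every test therefore compares sequenced columns and not conditions.

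In the mammary gland, ovarian steroids and prolactin act on a subset of luminal cells that carry their receptors. The oestrogen receptor opens transcription of target genes such as Pgr and Areg together with the pioneer factor Foxa1. Hormone-sensing cells then instruct their receptor-negative luminal and basal neighbours through secreted Areg, Wnt4 and Rankl. Prolactin, through Prlr, signals by Jak2 and Stat5.

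Read counts were recovered from the deposited means, and a level here is a count divided by a median-of-ratios factor that puts the 5 columns on 1 scale. Column totals ran from 2036681 to 3840462 counts, with 11791 to 13957 genes detected and 9.76% to 32.2% of counts on the ribosomal RNA precursor Rn45s, the highest share being that of Bsecs. The basal columns had opposite genotype names in different tables and are called by size: the smaller held 2036681 and the larger 2359861 counts. Their difference is therefore not attributed to genotype. Labels of the KO luminal libraries also conflicted, the titles naming knockout and the source field wild-type mice. Markers followed the labelled cell types. The summed level of 10 pan-luminal markers was 58370 in WT luminal, 76298 in KO luminal and 59693 in Bsecs, against 4469 and 4298 in the smaller and larger basal columns. The sum of 10 basal markers was 182 in WT luminal and 706 in KO luminal cells, 17560 in Bsecs, 45711 in smaller basal and 24781 in larger basal. These sums rest on a few genes. In Bsecs the keratins Krt14, Krt17 and Krt5, at 8944, 5007 and 3307, made up most of the basal sum, while the contractile genes Acta2, at 144, and Myh11, at 20.02, were far below the basal columns (11621 and 4061 in the larger). Cldn4 alone, at 39051, made up most of the pan-luminal sum in Bsecs, and Muc1 was at 2.11. Against the mean of both luminal columns, Epcam in Bsecs was at 97.1%, Cldn7 at 80.9%, Krt19 at 62.6%, Cd24a at 54.1% and Krt7 at 52.1%. Lower shares were those of Krt8 at 15.3%, Krt18 at 14.8% and Cldn3 at 6.14%. In sorted bulk cells, fewer cells of a type and less RNA per cell cannot be told apart.

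Promoter windows of RefSeq genes (GRCm38.p6, another build than that of the deposited values) were matched for 6 of the 8 genes, in 11 windows of 250 bases before to 50 after an annotated start. Windows of Esr1, Prlr, Foxa1 and Cited1 are shown because these genes had the most contrasting patterns, Esr1 being read in a basal column where Foxa1 and Cited1 were at 0. Of Prlr and Cited1, 1 of 3 windows each is shown, for Prlr the window with the most matches. Each window shown runs 5′ to 3′ on the strand of the gene, and capitals mark every motif found. The Esr1 windows are chr10:4611739-4612038 and chr10:4709908-4710207 on the plus strand, the Prlr window is chr15:10223656-10223955 on the plus strand, and the Foxa1 and Cited1 windows are chr12:57546062-57546361 and chrX:102252132-102252431 on the minus strand.
Esr1, upstream start: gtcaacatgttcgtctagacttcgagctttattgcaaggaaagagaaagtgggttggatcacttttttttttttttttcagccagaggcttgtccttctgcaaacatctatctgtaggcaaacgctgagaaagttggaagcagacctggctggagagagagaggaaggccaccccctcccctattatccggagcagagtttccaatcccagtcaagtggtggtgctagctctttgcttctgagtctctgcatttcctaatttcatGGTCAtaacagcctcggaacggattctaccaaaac
Esr1, downstream start: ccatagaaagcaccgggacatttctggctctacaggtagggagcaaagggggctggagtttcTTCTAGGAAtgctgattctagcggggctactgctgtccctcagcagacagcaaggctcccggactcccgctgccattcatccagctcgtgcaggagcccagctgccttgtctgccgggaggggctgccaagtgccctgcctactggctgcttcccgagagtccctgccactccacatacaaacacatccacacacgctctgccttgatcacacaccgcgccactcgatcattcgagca
Prlr, middle start: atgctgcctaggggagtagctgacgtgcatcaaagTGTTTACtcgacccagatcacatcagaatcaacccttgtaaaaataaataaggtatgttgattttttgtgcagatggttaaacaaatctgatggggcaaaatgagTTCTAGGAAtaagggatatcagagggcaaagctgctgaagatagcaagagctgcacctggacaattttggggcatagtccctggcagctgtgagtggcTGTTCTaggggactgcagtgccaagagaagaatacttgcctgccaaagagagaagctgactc
Foxa1: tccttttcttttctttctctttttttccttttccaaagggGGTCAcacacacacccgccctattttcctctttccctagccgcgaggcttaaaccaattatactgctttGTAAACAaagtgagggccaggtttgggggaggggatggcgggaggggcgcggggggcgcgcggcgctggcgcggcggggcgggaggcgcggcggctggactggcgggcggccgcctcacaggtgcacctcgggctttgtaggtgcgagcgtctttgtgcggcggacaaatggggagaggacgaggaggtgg
Cited1, upstream start: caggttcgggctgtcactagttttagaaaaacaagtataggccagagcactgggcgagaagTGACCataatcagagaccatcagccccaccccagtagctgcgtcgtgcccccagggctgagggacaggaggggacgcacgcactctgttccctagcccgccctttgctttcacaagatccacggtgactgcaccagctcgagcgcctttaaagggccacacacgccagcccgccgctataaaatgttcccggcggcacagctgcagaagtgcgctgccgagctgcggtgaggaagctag

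The motifs were searched on both strands, and a match on the other strand appears as its reverse complement. The full oestrogen response element, GGTCA and TGACC with any 3 bases between them, was in 0.07% of 32851 windows of this length and in no window of the 6 genes. Its core GGTCA, which the full element contains, was in 40.5% of all windows and matched in an Esr1, the Foxa1 and 2 of the Cited1 windows. The forkhead motif TGTTTAC was in 3.65% of windows and matched at Foxa1 itself, 141 bases before the start, and at Prlr, 215 bases before. The Stat motif TTCNNNGAA, in 8.3% of windows, was found as TTCTAGGAA 188 bases before an Esr1 start and 110 bases before a Prlr start. The steroid receptor core AGAACA was in 19.0% of windows and in 1 Prlr window, and the T-box motif GGTGTGA in 3.98% and in another Prlr window. The Pgr and Tnfsf11 windows held none of them. A match in such a window is a run of letters and not a binding site.

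Esr1, the oestrogen receptor alpha, had its highest level outside the luminal columns. It had 713 counts in the smaller basal column, 600 in KO luminal, 358 in WT luminal, 60 in Bsecs and 30 in the larger basal column, or levels of 947, 434, 319.6, 63.2 and 28.8. The luminal columns thus lay between the basal ones, and each neighbour in this order differed by more than counting error (the closest pair, KO over WT luminal, 1.36-fold, 95% counting interval 1.19 to 1.55). Smaller over larger basal, Esr1 stood at 33.3-fold, the difference for which it was on the list and which is given as a description with no weight as a test. Several genes that act with or downstream of Esr1 were at or near 0 in the smaller basal column, and others were not. Foxa1, Cited1, Areg, Greb1 and Wnt4 all had 0 counts there, against 2, 1, 1, 3 and 2 in the larger basal column. Pgr had 37 there, against 18. Low counts of these genes were thus shared by both basal columns. Gata3, a luminal factor that supports Esr1 transcription, was at a level of 529.9 in the smaller basal column. It was at 217 in the larger, 272 in WT luminal and 667 in KO luminal cells. The coregulator Nrip1 was at 1936 in the smaller basal column, against 1180, 837 and 1015. The values of cells other than epithelium beside this difference did not go 1 way. From the smaller to the larger basal column the summed level of 10 fibroblast markers was 502 and 2671, of 10 endothelial markers 149 and 288, of 10 immune markers 45.2 and 16.3, and of 6 adipocyte markers 106 and 31.7, where 4 adipocyte markers of the smaller and 3 of the larger column were at 0. Of the endothelial markers, Eng (59.8 and 12.5), Vwf (22.6 and 1.92) and Esam (3.98 and 3.85) were higher in the smaller column. The rest were lower there, among them Pecam1 at 19.9 and 81.7. Cd68, at 27.9 and 12.5, made up most of both immune sums, and 7 immune markers were at 0 in each column. Hormone-receptor-negative luminal markers summed to 280.2 and 78.9, of which Lypd3 made up 204.5 and 30.8. Of the rest, Kit, Cd14, Ltf and Wfdc18 were higher in the smaller column, and Elf5, Aldh1a3 and Csn3 were lower. The part of these cell types in the Esr1 value was not tested.

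Pgr, the progesterone receptor and a target of Esr1, was highest in the luminal columns. It had 1089 counts in WT luminal, 1406 in KO luminal, 352 in Bsecs, 37 in smaller basal and 18 in larger basal, and levels of 972, 1017, 371, 49.1 and 17.3. The luminal columns did not differ beyond counting error (KO over WT 1.05-fold, 0.965 to 1.13), and the lower of them was 19.8-fold above the higher basal column. The order of Pgr in the basal columns was that of Esr1, with the smaller 2.84-fold above the larger (1.58 to 5.30).

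Prlr, the prolactin receptor, had the highest level of the 8 genes. Counts were 16820 in WT luminal, 10771 in KO luminal, 119 in Bsecs, 3 in smaller basal and 28 in larger basal, with levels of 15014, 7787, 125.4, 3.98 and 26.9. The WT luminal column was 1.93-fold above KO luminal (1.88 to 1.98), and KO luminal 62.1-fold above Bsecs (51.9 to 75.1). Set per kilobase of exon, using GENCODE lengths that may differ from the authors' annotation, Prlr at 1144 in WT luminal cells stood with Cited1 at 1349 and Ly6a at 910, while Pgr was at 141, Tbx3 at 115, Foxa1 at 75.0 and Esr1 at 41.2.

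**Figure D1:**
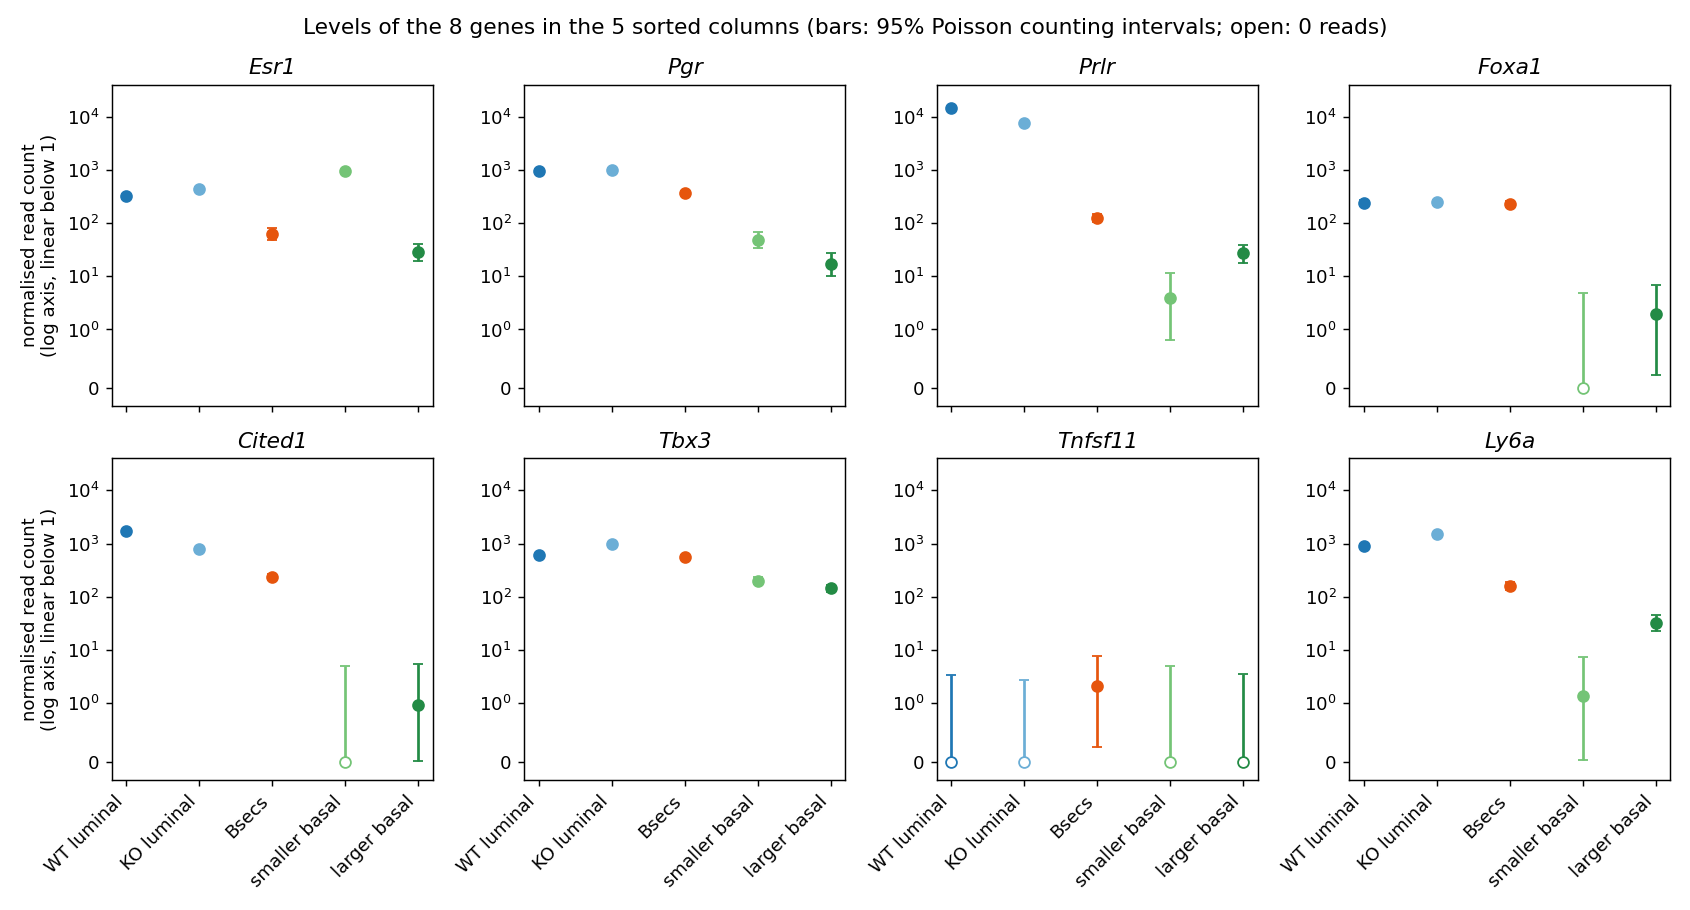
Level of each of the 8 genes in the 5 deposited columns, as recovered counts on the median-of-ratios scale on a logarithmic axis, with bars for exact Poisson 95% intervals of counting error. Prlr runs from 15014 in WT luminal to 3.98 in the smaller basal column, while Esr1 is highest in the smaller basal column at 947.

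Foxa1, the forkhead pioneer factor through which the oestrogen receptor reaches chromatin, was at nearly equal levels in 3 columns and at or near 0 in the others. It had 268 counts in WT luminal, 340 in KO luminal, 216 in Bsecs, 0 in smaller basal and 2 in larger basal, for levels of 239, 246, 228, 0 and 1.92. No step among the luminal columns and Bsecs exceeded counting error (1.03-fold, 0.873 to 1.21, and 1.05-fold, 0.876 to 1.26), and the basal columns could not be separated. At the floor of 3 counts, the 0 in the smaller basal column allows a level of up to 3.98.

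Cited1, a transcriptional coactivator that binds the oestrogen receptor, had a different level in each column where it was well read. Its counts were 1906 in WT luminal, 1100 in KO luminal, 220 in Bsecs, 0 in smaller basal and 1 in larger basal, and its levels 1701, 795, 232, 0 and 0.962. WT luminal was 2.14-fold above KO luminal (1.99 to 2.31), which was 3.43-fold above Bsecs (2.97 to 3.98). Foxa1 and Cited1 differ here in that the Bsecs level was 93.8% of the luminal mean for Foxa1 and 18.6% for Cited1.

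Tbx3, a T-box repressor needed for mammary development, was read in every column. It had 673 counts in WT luminal, 1346 in KO luminal, 532 in Bsecs, 152 in smaller basal and 149 in larger basal, with levels of 601, 973, 560.4, 202 and 143. The KO luminal column was 1.62-fold above WT (1.48 to 1.78), and WT luminal and Bsecs did not differ beyond counting error (1.07-fold, 0.955 to 1.20). Of the 7 genes read in luminal cells Tbx3 had the narrowest range of levels, the lower luminal column being 2.98-fold above the higher basal column.

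Tnfsf11, the progesterone-induced ligand Rankl, was not detectable in any column at this depth. It had 0 counts in both luminal and both basal columns and 2 in Bsecs, a level of 2.11 that counting error does not separate from 0. At that floor, the counts of 0 allow levels of up to 2.68 in WT luminal, 2.17 in KO luminal, 3.98 in smaller basal and 2.88 in larger basal. Its receptor Tnfrsf11a, named after its values were seen, was at 4.46 in WT luminal, 26.03 in KO luminal, 61.1 in Bsecs, 161 in smaller basal and 184 in larger basal.

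Ly6a, the Sca-1 antigen, was highest in the KO luminal column. It had 1023 counts in WT luminal, 2100 in KO luminal, 151 in Bsecs, 1 in smaller basal and 34 in larger basal, or levels of 913, 1518, 159, 1.33 and 32.7, and each step exceeded counting error. KO over WT luminal was 1.66-fold (1.54 to 1.79) and larger over smaller basal 24.6-fold (4.13 to 1001, on 34 and 1 counts). Ly6a shares sequence with near-identical Ly6 copies, so its counts are uncertain. Ly6a is inducible by interferon and is also carried by endothelial and stromal cells. The summed level of 14 interferon response genes was 976 in WT and 1853 in KO luminal, 1039 in Bsecs, 463 in smaller basal and 1453 in larger basal. In the luminal columns fibroblast markers summed to 935 in WT and 1206 in KO, of which Dcn made up 775 and 983, while Col1a1 was at 11.6 and 0 and Col3a1 at 19.6 and 1.45. Endothelial markers summed to 84.8 and 153, led by Eng and Vwf, while Pecam1 was at 6.25 and 1.45. The part of these in the Ly6a values was not tested.

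Set as lineages, 5 of the 7 genes with a mean level of at least 50 (Cited1, Foxa1, Ly6a, Pgr and Prlr) had both luminal columns at least 4-fold above both basal columns, beside 6.3% of 6494 genes. The other genes were Tbx3, at 2.98-fold, and Esr1, whose lower luminal column was 0.338 times its higher basal column. All of these genes were listed for their place in the hormone-sensing program of luminal cells. The 5 reached that mean through the luminal columns, so nothing is read from their count. Without the smaller basal column, 7 of 7 met the rule, a choice made after seeing the data. The share of all genes under that looser rule was not computed, so nothing is read from that count. None was at least 4-fold higher in both basal columns. The share of all genes in that direction was not computed either, and nothing is read from it.

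**Figure D2:**
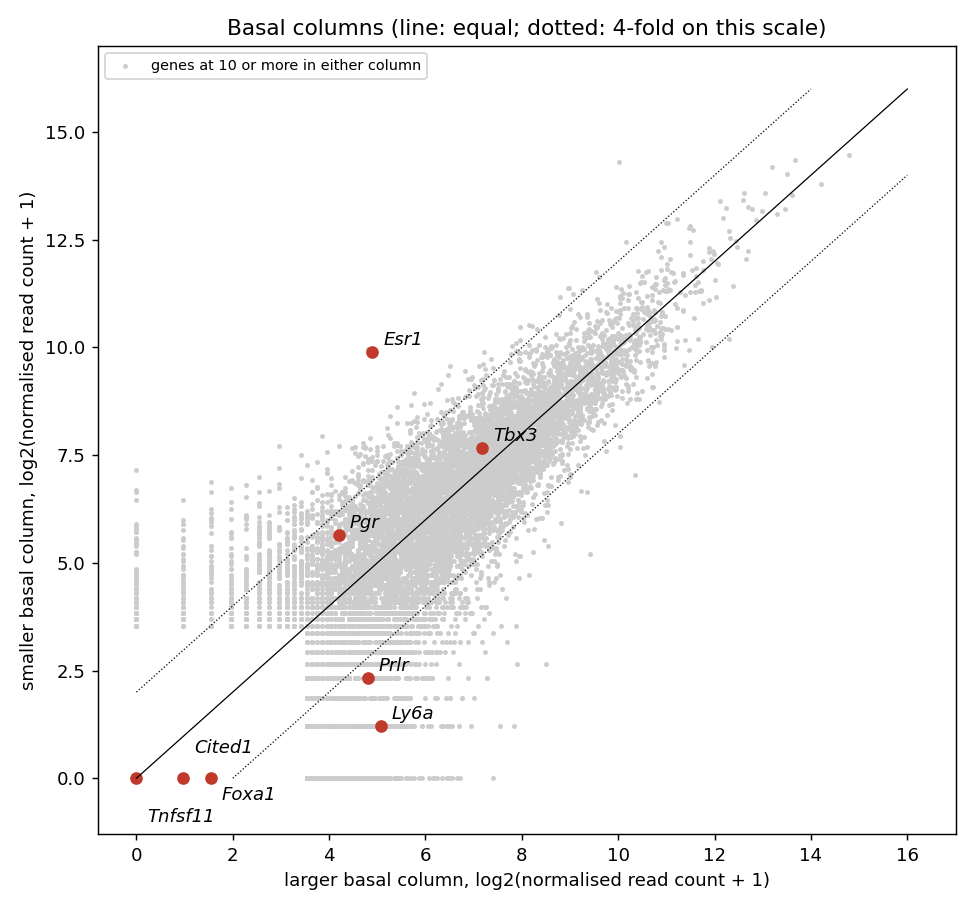
Level in the larger (horizontal) and the smaller basal column (vertical), each as log2 of level plus 1, for the 8 genes (red, named) and for genes with a level of at least 10 in either column (grey), with the line of equal levels and dotted lines at 4-fold. Esr1 lies far above the line, at 947 against 28.8, while Ly6a lies below it, at 1.33 against 32.7.

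The luminal columns were compared as labelled, KO over WT. Since labels of the KO luminal libraries conflicted, their difference is not attributed to loss of Bptf. No gene of the 8 passed, beside 0.0882% of 14736 genes past an adjusted p of 0.05 using DESeq p-values from the authors' deposited table after Benjamini-Hochberg correction. None of them had an unadjusted p under 0.05 there, as 551 genes had. The edgeR exact test at a preset dispersion called 0 of them, beside 226 of 14733 genes. On the authors' scale the folds, KO over WT, were 1.64 for Ly6a (1.52 to 1.76), 1.59 for Tbx3 (1.45 to 1.75), 1.34 for Esr1 (1.17 to 1.53), 1.03 for Pgr (0.95 to 1.11) and 1.01 for Foxa1 (0.859 to 1.19). Cited1 was 2.17-fold lower (2.02 to 2.34) and Prlr 1.96-fold lower (1.91 to 2.01). None was 4-fold apart, beside 2.31% of 6975 genes higher and 1.84% lower. The intervals hold counting error alone, so they give no measure of the spread between mice.

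The comparison of the basal columns, smaller over larger, had 1 of the genes past the adjusted p, Esr1 (0.0023 from the authors' deposited table, DESeq, Benjamini-Hochberg corrected), beside 0.0274% of 14595 genes. Since Esr1 was listed with that difference known, nothing is read from the count. The others stood at 2.88-fold for Pgr (1.60 to 5.37), 1.43-fold for Tbx3 (1.13 to 1.80), 0.150-fold for Prlr (0.0292 to 0.486) and 0.0412-fold for Ly6a (0.00101 to 0.245). Of the 8, 2 had a mean of at least 50, and 1 of those, Esr1, was over 4-fold higher in the smaller column, beside 3.56% of 5700 genes, and 0 lower, beside 2.19%. Esr1 reached that mean through the smaller column and was listed with the difference known, so nothing is read from this count either.

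**Figure D3:**
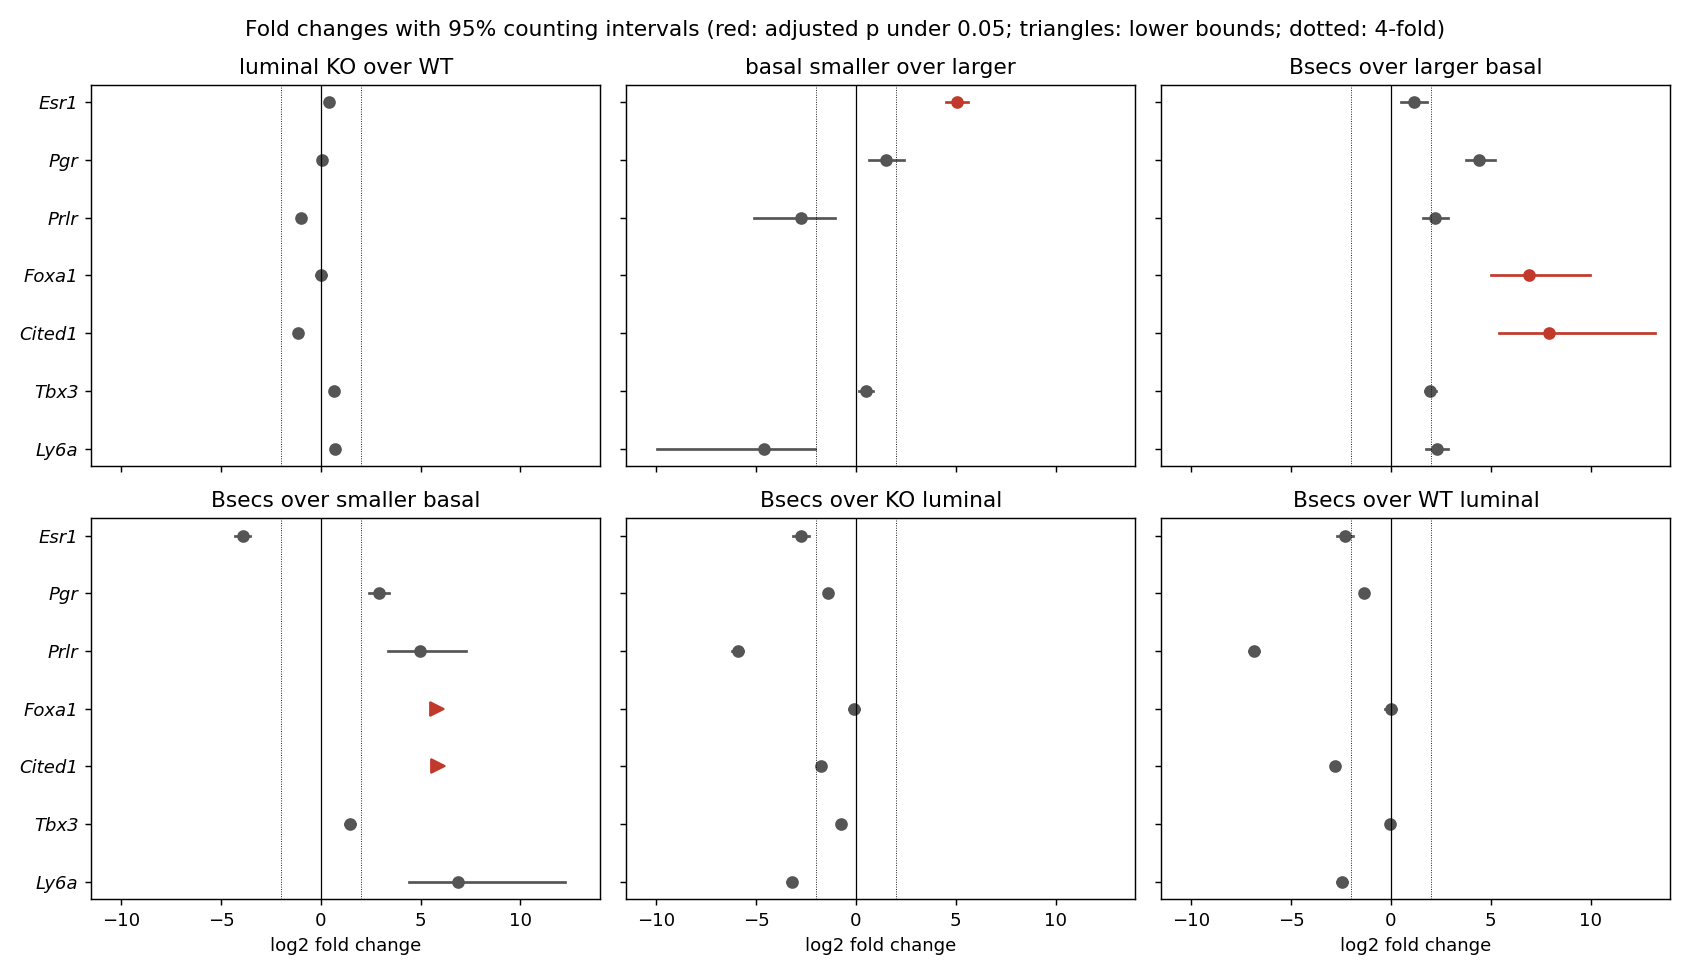
Log2 fold of 7 of the 8 genes in the 6 deposited comparisons, with lines for 95% counting intervals, red for an adjusted p under 0.05, triangles for lower bounds against a column at 0 and dotted lines at 4-fold. Red points are Esr1 between the basal columns and Cited1 and Foxa1 in Bsecs against each basal column, and Foxa1 and Cited1 have no point where both columns held under 3 counts.

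Bsecs were compared with the basal columns to place them beside the basal lineage. Foxa1 and Cited1 were higher in Bsecs against either one. Against the larger column Cited1 was at 242-fold (43.0 to 9601, on 220 and 1 counts) and Foxa1 at 119-fold (32.5 to 987, on 216 and 2), with adjusted p of 0.0246 and 0.0470 from the authors' deposited table (DESeq, Benjamini-Hochberg corrected). They were the 2 of 8 that passed, beside 0.48% of 14986 genes. Pgr stood at 21.5-fold (13.4 to 36.7), Ly6a at 4.89-fold (3.35 to 7.31), Prlr at 4.68-fold (3.08 to 7.33), Tbx3 at 3.93-fold (3.27 to 4.74) and Esr1 at 2.20-fold (1.40 to 3.53), and none of these passed with the deposited p-values. Pgr passed in edgeR's exact test at a preset dispersion, as 1275 of 14982 genes did. By size, 5 of the 6 genes with a mean of at least 50 were at least 4-fold higher, beside 7.52% of 6090 genes, and 0 lower, beside 7.45%. These 5 genes reached that mean through the Bsecs column alone, so nothing is read from the count.

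Against the smaller column, Cited1 was at least 57.8-fold and Foxa1 at least 56.7-fold higher in Bsecs, with the smaller column set at 3 counts in place of 0. Their adjusted p were 0.0237 and 0.0246, from the authors' deposited table (DESeq, Benjamini-Hochberg corrected), and they were again the 2 that passed, beside 0.759% of 13698 genes. Ly6a stood at 119-fold (21.02 to 4728, on 151 and 1 counts), Prlr at 31.2-fold (10.4 to 154) and Pgr at 7.49-fold (5.33 to 10.8), without passing. Esr1 alone stood the other way, 15.1-fold lower in Bsecs (11.6 to 19.98, adjusted p = 0.239 from DESeq p-values of the authors' deposited table). By size 5 of 7 were at least 4-fold higher, beside 7.05% of 5673 genes, and 1 lower, beside 8.11%. The 5 higher genes passed the filter on the mean through the Bsecs column alone, so nothing is read from their count. Both comparisons share the Bsecs column. The sign of the Esr1 value thus depended on which basal column was used.

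Against the luminal columns, the Bsecs values of most of these genes were lower, none past the test, and that of Foxa1 lay within counting error of both. Bsecs were labelled knockout, so against WT luminal cells the population and the genotype cannot be told apart. Prlr was 60.3-fold lower than in KO luminal (50.4 to 72.9) and 115-fold lower than in WT luminal cells (95.9 to 139). Its adjusted p was 0.476 and 1, from the authors' deposited tables (DESeq, Benjamini-Hochberg corrected). None of the 8 passed against KO luminal, beside 0.0405% of 14800 genes, or WT luminal, beside 0.21% of 14304. At an unadjusted p under 0.05 there were 3 and 1, where 565 and 614 genes had such a p. The edgeR exact test at a preset dispersion called 3 in each, beside 1638 of 14797 and 1972 of 14301 genes. Against KO luminal, Ly6a was 9.27-fold lower (7.86 to 11.01), Esr1 6.67-fold lower (5.11 to 8.84), Cited1 3.33-fold lower (2.88 to 3.87), Pgr 2.66-fold lower (2.37 to 3.001) and Tbx3 1.69-fold lower (1.52 to 1.87). By size, 3 of 7 genes (Prlr, Ly6a and Esr1) were at least 4-fold lower than in KO luminal, beside 10.1% of 6665 genes, and 4, those and Cited1, than in WT luminal, beside 9.59% of 6364. None was 4-fold higher, beside 6.41% and 9.21%. Foxa1 was at 0.953 times KO luminal (0.800 to 1.13) and 0.992 times WT luminal (0.825 to 1.19), and Tbx3 at 0.973 times WT luminal (0.867 to 1.09).

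As a share of the mean of both luminal columns, the Bsecs level was 93.8% for Foxa1, 71.2% for Tbx3, 37.3% for Pgr, 18.6% for Cited1, 16.8% for Esr1, 13.1% for Ly6a and 1.10% for Prlr. Other genes of hormone-sensing cells ran from 142% to 4.80% where their luminal mean was at least 50. Stc2, a secreted glycoprotein, was at 142% and Greb1, an Esr1 cofactor and target, at 55.1%. Areg, the EGF receptor ligand that relays oestrogen, was at 27.0%, Tph1, the enzyme of serotonin synthesis, at 22.0%, Wnt4, the Wnt ligand that relays progesterone, at 17.7%, and Cxcl15 at 4.80%. Receptor-negative luminal markers were low in Bsecs too: Csn3 was at 0.152% and Aldh1a3 at 7.92%, while Lypd3 was at 316%. The part of cell mixture in these shares was not tested.

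**Figure D4:**
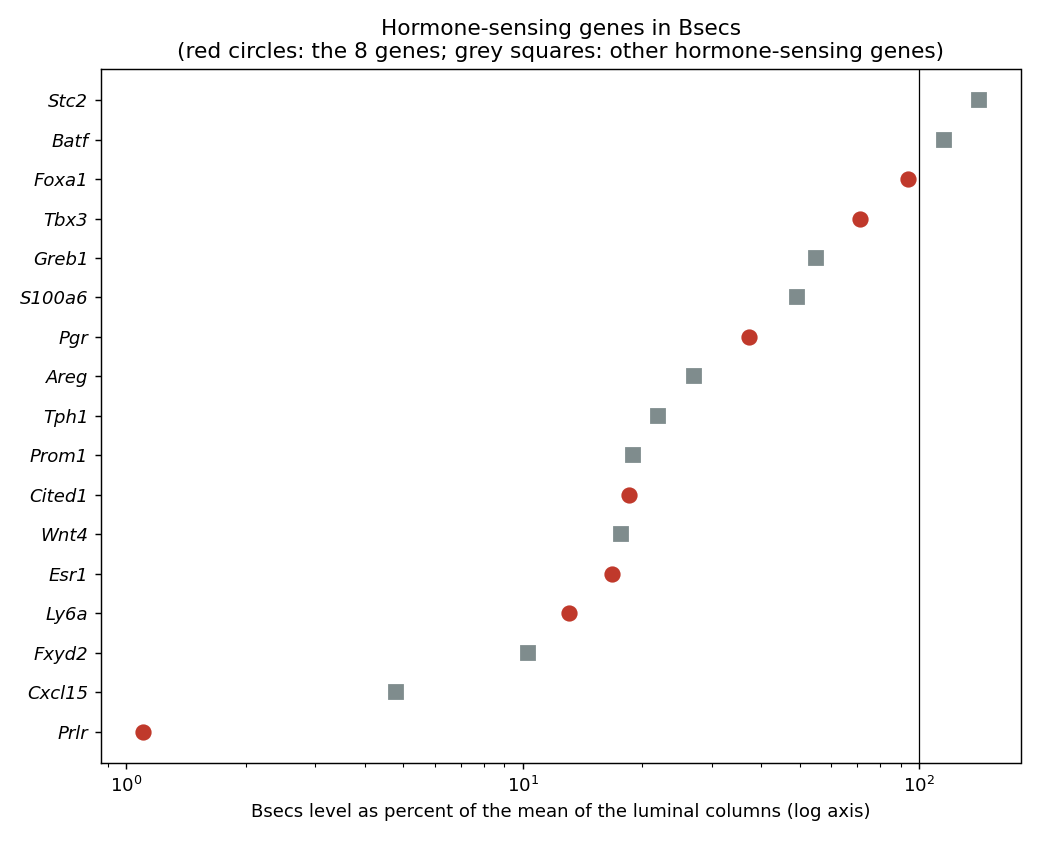
Level in Bsecs as a percentage of the mean of the WT and KO luminal columns, on a logarithmic axis, for 7 of the 8 genes (red circles, Tnfsf11 having 0 luminal counts) and the other hormone-sensing genes with a luminal mean of at least 50 (grey squares). Foxa1 lies at 93.8% and Prlr at 1.10%.

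The lists of the wider pathway were chosen with results of these data known, and their counts describe these columns. Of 12 other hormone-sensing luminal genes, 3 rose in Bsecs against the larger basal column, namely Areg (453-fold, 80.9 to 17943, on 412 and 1 counts), Tph1 (at least 67.5-fold) and Fxyd2, a subunit regulating the sodium pump (at least 59.03-fold), and 1 against the smaller, Areg (at least 108-fold). These calls stand beside 0.48% and 0.759% of all genes. No median is read there, since most of these genes reach a mean of 50 through the Bsecs column alone. In the luminal comparison 0 of 11 tested passed, with a median of 0.09 beside -0.0032 over all genes. In the smaller basal column 7 of the 12 were at 0, and in the larger 4. Against KO and WT luminal cells the medians in Bsecs were -1.92 and -1.93, beside 0.13 and 0.14, with 0 of 12 called. Nothing is read from these medians, since the genes were listed as luminal and some, such as Cxcl15 and Wnt4, reach a mean of 50 through the luminal columns alone.

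**Figure D5:**
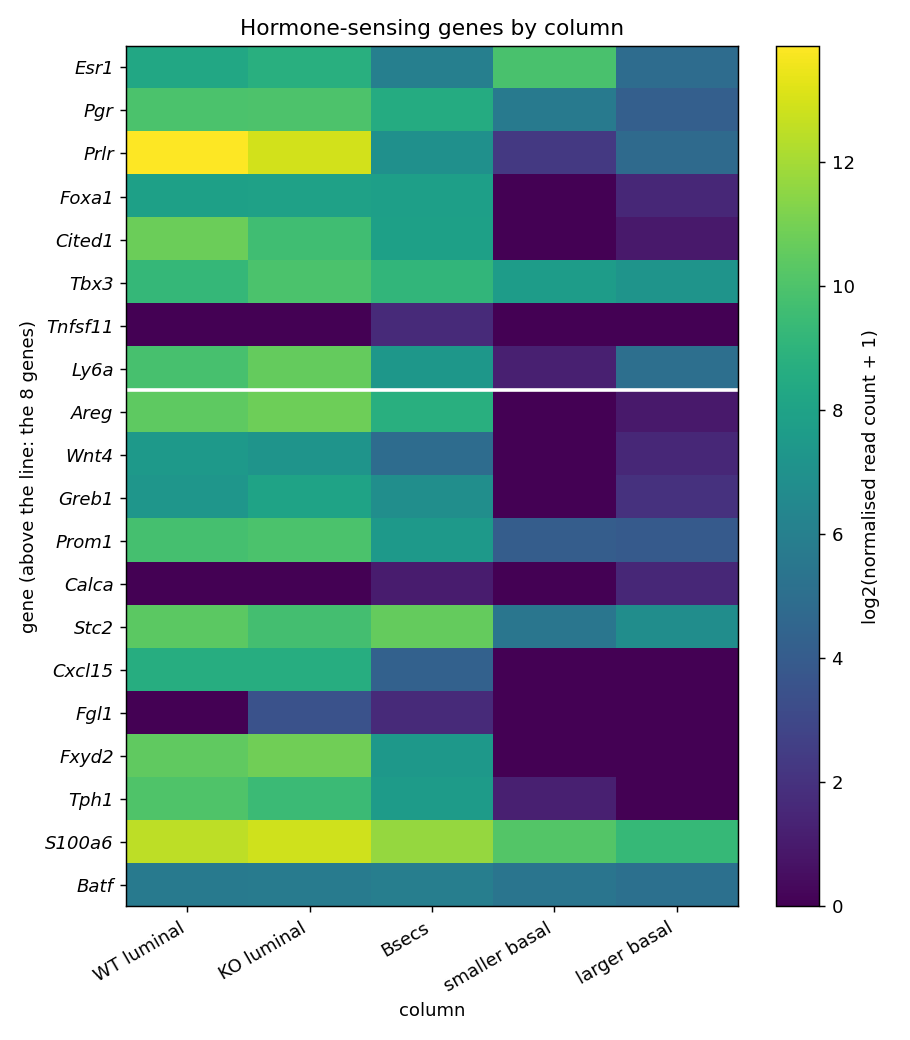
Levels of the 8 genes (above the white line) and of the 12 other hormone-sensing luminal genes in the 5 columns, shown by colour as log2 of level plus 1. In the smaller basal column Foxa1, Cited1, Areg, Wnt4 and Greb1 are at 0 while Esr1 is at 947. In the larger basal column they are at 1.92, 0.962, 0.962, 1.92 and 2.88, and Esr1 is at 28.8.

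Oestrogen receptor target genes had 0 of 11 called in the luminal and the basal comparison, with medians of 0.53 over 9 and -0.68 over 6 genes at a mean of at least 50, beside -0.0032 and 0.10 over all genes. The basal median was -0.04 over 9 genes at a mean of at least 10. Areg was the 1 that rose in Bsecs against each basal column. Igf1r, the receptor for insulin-like growth factor, was 4.13-fold higher in KO luminal cells (3.04 to 5.70) and Rara, a retinoic acid receptor, 2.11-fold (1.79 to 2.48), neither past the test. In the basal comparison, where Esr1 was 33.3-fold higher in the smaller column, Stc2 was 2.52-fold lower (1.69 to 3.86) and Xbp1, a factor of the secretory pathway, 2.12-fold lower (1.79 to 2.51), also without passing. Rara went the other way, with levels of 75.7 in the smaller and 20.2 in the larger column, and was named here after its values were seen. Of the genes of prolactin signalling, 0 of 12 passed in any of the 6 comparisons. Jak2, the kinase bound to Prlr, was at levels of 708 in WT luminal, 939.9 in KO luminal, 822 in Bsecs, 301 in smaller basal and 837 in larger basal. Stat5a, the factor it activates, was at 429, 677, 673, 332 and 185. Jak2 and Stat5a in Bsecs were thus at 99.7% and 122% of the luminal mean, where Prlr was at 1.10% (both named after their values were seen). Cish, a Stat5-induced inhibitor, was 5.40-fold lower in Bsecs than in KO luminal (3.66 to 8.24) and Socs2 6.31-fold higher than in WT luminal cells.

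Among 11 genes of progesterone, Rankl and Wnt signalling none passed in the 6 comparisons. Lgr5, a receptor for R-spondins, was 99.1-fold lower in Bsecs against larger basal (17.4 to 3949, on 1 and 109 counts) and Lgr4 13.4-fold lower (9.74 to 18.8). Of 32 other nuclear receptors none passed either. Vdr, the vitamin D receptor, was 4.22-fold higher in KO than in WT luminal cells, and Nr1d1, a clock repressor, 5.82-fold higher in the smaller than in the larger basal column. The 19 coregulators had none past the test, and their medians lay between -0.55 and 0.08. Of 11 luminal transcription factors, Ehf, an Ets factor, rose in Bsecs against the larger basal column (at least 49.5-fold, adjusted p = 0.0491 from the authors' deposited table (DESeq, Benjamini-Hochberg corrected)). Gata3 was 2.41-fold higher in KO than in WT luminal cells without passing. The other families of Foxa1, Tbx3 and Cited1 were mostly unread, 8 of 10 being at 0 in both luminal columns, with 0 called. In the Ly6 family, Ly6d rose in Bsecs against the larger (193-fold) and the smaller (at least 739-fold) basal column, and stood at 1.35 times WT luminal and 0.609 times KO luminal cells, where Ly6a stood at 0.182 and 0.108 times. Interferon response genes had 0 of 14 past the test in each comparison.

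By Pearson correlation of log2(level + 1) over the 5 columns, the genes most like each of the 7 were found among 6305 genes. They were Wdr41, Ccdc97 and Tfip11 for Esr1, Csnk1e, Rnh1 and Gpd2 for Pgr, Ndufa13, Map3k13 and Tspan1 for Prlr, Basp1, Coro1b and St3gal1 for Foxa1, Esrrg, Shpk and Coro2a for Cited1, Plxnb2, Myl12b and Mgat5 for Tbx3, and Arrdc3, Golga2 and Fbxo6 for Ly6a. All r were at least 0.995, over only 5 points that share libraries and scale, and none was tested. From 37 genes (Esr1) to 166 (Foxa1 and Ly6a) had the same order of levels as the member. Pearson r takes no account of the width of the range: Ndufa13 ran from 58.4 to 252, where Prlr ran from 3.98 to 15014. By order of levels, Pgr and Tbx3 ran alike (KO luminal, WT luminal, Bsecs, smaller, larger basal), as did Prlr and Cited1 (WT luminal, KO luminal, Bsecs, larger, smaller basal). Foxa1 and Ly6a also shared an order (KO luminal, WT luminal, Bsecs, larger, smaller basal). These orders hold within the neighbours named above that counting error does not separate.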

How the data were processed

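RNA of FACS-sorted mammary cells was extracted with TRIzol, amplified with the Ovation RNA-seq system V2 and made into libraries with the Ovation Ultralow kit, per the labels' protocols. STAR, DESeq and the mm9 build are named in the submitters' processing notes. Not given in the sources used here are versions, counter, annotation, strand setting and any pooling of libraries. The authors deposited 6 pairwise tables of 24000 genes. They hold, per the file headers, 2 columns of mean signal (read counts normalised by DESeq) and an unadjusted p-value each. Of 12 mean columns, 0 were of other origin, and 0 per-library columns were found.

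Every deposited signal value was a multiple of a column-specific step (100% within 0.01 of a count), so read counts were recovered, giving 5 distinct columns. Levels are counts over median-of-ratios factors from 9789 genes. Folds use the authors' scale, with exact binomial (Clopper-Pearson) 95% intervals. Levels have exact Poisson intervals. Without molecular identifiers, PCR reads do not stand for independent molecules, and the intervals and floors hold counting error alone. A column at 0 was set to 3 counts and the fold given as a bound. Calls used the deposited p-values, adjusted by Benjamini-Hochberg across the whole table, at 0.05. By size, a gene counted when at least 4-fold apart with a mean of at least 50. An edgeR (4.0.16) exact test on the recovered counts, with an assumed dispersion of 0.16, was an alternative. It called 226, 349, 1275, 1382, 1638 and 1972 genes where the deposited p-values gave 13, 4, 72, 104, 6 and 30, in the order luminal, basal, Bsecs over larger basal, smaller basal, KO luminal and WT luminal.

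The 8 genes and the 17 lists (209 entries, 1 unmatched) were chosen with earlier results of these data known. Named list genes were up to 4 per list and comparison with the largest fold past the test, or up to 2 with the largest fold at a mean of at least 50 where none passed. The 3 genes most like each member had the highest Pearson r. Others named were chosen after their values were seen. Promoter windows and exon lengths (GENCODE) are of GRCm38 and were used with no mm9 coordinate. Scripts ran in Python 3.11.15 and R 4.3.3 and were tested on simulated data.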

Additional observations from a re-analysis of the deposited data

How the results depend on the processing

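No paired analysis was possible because the tables hold 1 mean column per group and carry no replicate numbers, and leaving out single replicates was not run for the same reason. With a dispersion of 0.16 assumed, edgeR's exact test called more of the 8 genes than the deposited p-values did: 2 in place of 1 between the basal columns (Esr1 and Ly6a), 3 in place of 2 in Bsecs over the larger basal column (adding Pgr), 6 in place of 2 in Bsecs over the smaller, and 3 in place of 0 in Bsecs over either luminal column. Over all genes it called 349 of 14591, 1275 of 14982, 1382 of 13695, 1638 of 14797 (KO luminal) and 1972 of 14301 (WT luminal) in these comparisons. At 2-fold in place of 4-fold, 1 gene (Cited1) met the size rule in the luminal comparison in place of 0, and 5 in place of 3 in Bsecs over KO luminal. With a minimum mean of 10, 3 in place of 1 met it between the basal columns (Esr1, Prlr and Ly6a). Each reached that mean through the column where it was high, so nothing is read from that count. On total counts without Rn45s, 3 in place of 5 met it in Bsecs over the larger basal column. That scale lowers every log2 fold by 0.08 to 0.36, or by comparison -0.08, -0.17, -0.36, -0.20, -0.21 and -0.32 in the order luminal, basal, Bsecs over larger basal, smaller basal, KO luminal and WT luminal, and edgeR's TMM scale moves them by at most 0.12. Of 160 recomputed log2 folds (40 folds under 4 alternatives) 2 changed sign, those of Pgr and Foxa1 in the luminal comparison, at most 0.04 in size. The count of 5 genes with both luminal above both basal columns was 6 at 2-fold, 5 without Rn45s, 5 without the larger basal or the KO luminal column, and 7 without the smaller basal column, the column leave-outs being added after seeing the data. No share over all genes was computed for these or the other changes of the size rule. Genes under 3 counts in a column carry wide intervals at this depth.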
